A study of Rattus norvegicus with 91 samples.

Results

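The genes described here are those of rat liver whose signal lay above the controls at 72, 96 and 168 h of a methylprednisolone time course while its average over 6, 10, 13 and 18 h lay near the controls. They were selected on the measured values. A probe set, the group of short probes that reads 1 transcript on an Affymetrix array, was a member if it had 1 gene symbol and a mean level of 7 or more on the log2(signal + 32) scale. In addition, the mean of its 72, 96 and 168 h group means had to lie at least 0.8 above the control mean, and the mean of its 6, 10, 13 and 18 h group means within 0.3 of it. This gave 34 probe sets of 31 genes, out of 5122 eligible probe sets of 4630 genes and 15923 probe sets on the array. Of the 174 eligible probe sets with a late difference of 0.8 or more, 137 lay above the early band and 3 below it.

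The study followed liver RNA of Wistar rats over time under 50 mg/kg methylprednisolone. The members come from the long course of 44 arrays, with 4 controls labelled Ctr at time 0 and 4 arrays at each of 6, 10, 13, 18, 24, 36, 48, 72, 96 and 168 h. A short course of 47 arrays with other probe sets, with 4 controls of its own and times up to 72 h, was used as a second set of samples. Every group carries the 50 mg/kg label, the controls included, and the labels give no sex, age, route, dosing schedule, vehicle, feeding state or time of day. In what follows, early means 6 to 18 h (16 arrays), mid means 24 to 48 h (12 arrays) and late means 72 to 168 h (12 arrays), each window being the unweighted mean of its group means.

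Methylprednisolone is a synthetic glucocorticoid. It binds the glucocorticoid receptor, which moves to the nucleus, binds DNA and turns genes of amino acid breakdown and glucose production up within hours, while other genes respond more slowly through proteins made in between. Glucocorticoids are also known for fat accumulation in the liver, where insulin and dietary sugar drive fatty acid synthesis through the transcription factors SREBP-1c and ChREBP. In rodents the expression of many of these lipid and sugar genes follows feeding and the daily clock.

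Tyrosine aminotransferase (Tat), a classical target of the receptor in liver, rose early by 1.41 ± 0.27 (log2 difference ± SE, limma adjusted p = 0.000424) and late by 0.91 ± 0.27 (limma adjusted p = 0.024). Nothing in the labels says that arrays of a group come from separate animals, so errors and p-values measure only how far these arrays differ, perhaps for technical reasons, and their number limits the precision. Bacterial spike-in signal divided the long course into 15 high and 29 low arrays, with 1 high array among the controls, 1 at 72 h, 2 at 96 h and 3 at 168 h. Replicate 4 was high and replicate 1 low in all 11 groups. The log2 difference between the 3′ and 5′ Gapdh probe sets, a measure of RNA integrity, was 0.0964 ± 0.201 in the controls (SD, n = 4) and 0.362 ± 0.0519 late (SD, n = 12). Its mean was 0.197 early and 0.283 mid, so it rose from window to window, and its part in the members' difference was not tested. The summed signal of 9 hepatocyte markers lay between 67553 and 116829 in the controls and between 50787 and 130466 late, so the defining markers of liver were present throughout, and limma called 0 of the 9 late. In whole liver, fewer cells of a type and less RNA per cell cannot be told apart.

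Averaged over the 34 probe sets, the members lay 0.20 above the control mean at 6 h, 0.11 at 10 h and 0.16 at 13 h, on the log2(signal + 32) scale. At 18 h the average was -0.06. It then stood at 0.47 at 24 h, 0.69 at 36 h and 0.73 at 48 h, before 1.13 ± 0.168 at 72 h, 1.31 ± 0.261 at 96 h and 1.41 ± 0.180 at 168 h (SD over 4 arrays). The 12 late arrays ranged from 0.954 to 1.58 and all lay above the highest control array. The 4 controls themselves stood at -0.28, -0.47, 0.19 and 0.57, so control replicate 4 was as high as several 24 to 48 h arrays. These values describe the selection and carry no test.

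**Figure D1:**
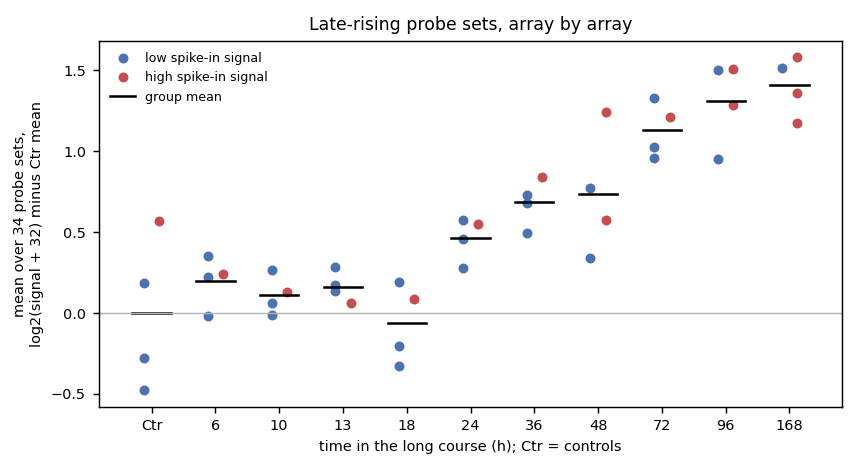
Mean of the 34 late-rising probe sets on each of the 44 long-course arrays, as log2(signal + 32) minus the control mean, against time in hours; points are arrays, coloured by high or low spike-in signal, and black bars are group means. The controls spread from -0.47 to 0.57, and all 12 late arrays lie above them.

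The highest group mean fell at 168 h for 13 probe sets, at 96 h for 12 and at 72 h for 6. The others peaked at 36 h (Ugt2b and Hsd17b13) and 24 h (G0s2). The name "late only" holds for a minority of the members. Only Cyp4a8, Slc2a5, Slc22a8, Bckdk, Rpp21 and Glrx, 6 of 31 genes, stayed within 0.3 of the controls at each of the 4 early times. For 11 probe sets of 9 genes the 6 h mean lay above that band and for 5 it lay below. At 18 h, 8 were above and 7 below. Thrsp, Rgs16, Prss3b, Pklr and Pygl were above the band at 6 h and below it at 18 h, and Tmem164, G0s2 and Tspan31 the reverse, so that for these 8 genes early values on opposite sides of the controls averaged out. Before 72 h, the mid window already stood above the band for 29 probe sets, and at 0.8 or more for 9, among them Ugt2b, Cyp4a8, Hsd17b13, Kynu and Dao. Of the 6 genes near the controls at each early time, only Bckdk (0.19) was still within the band in the mid window.

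**Figure D2:**
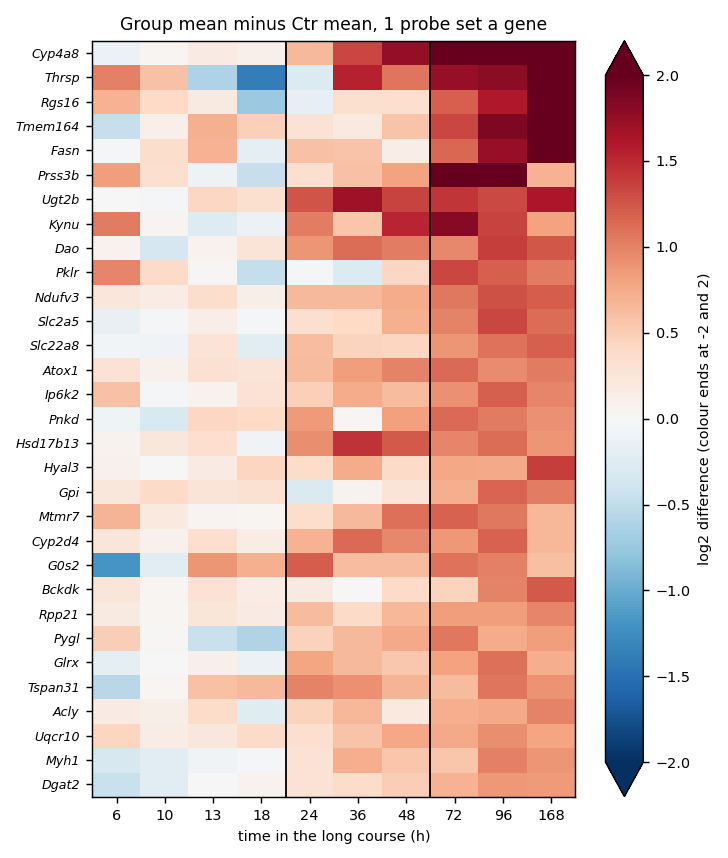
Group mean minus control mean (log2 difference, colour) at each of 10 times in hours for the 31 member genes, ordered by their late difference, each shown by its probe set with the largest late difference; black lines part the early, mid and late times. Thrsp, Pklr and Pygl are above the controls at 6 h and below at 18 h, whereas G0s2 and Tspan31 run the other way.

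The members varied more than all eligible probe sets, both among the controls and in the late groups. The SD over the 4 control arrays had a median of 0.539 over the members and 0.275 over all eligible probe sets. In the late groups the corresponding medians were 0.413 and 0.251. The rule used these same control and late arrays, so the larger spread is a description of the selection. The lowest late array was at or below the highest control for 24 of the 34 probe sets. Every late array lay above every control for the other 10, Cyp4a8, Rgs16, Tmem164, Ugt2b, Ndufv3, Ip6k2, Hyal3, Mtmr7, Cyp2d4 and Uqcr10, against 2.11% of all eligible probe sets. In the mid window the same held for 5 members (Ndufv3, Ip6k2, Hyal3, Cyp2d4 and Tspan31) against 1.58%, and in the early window for 0 against 0.996%. The late share was fixed in part by the rule, and the mid share uses the same 4 controls, so nothing is read from either.

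Which probe sets met the rule turned on single control arrays. Without control replicate 1, 2, 3 or 4, the rule gave 32, 33, 39 and 36 probe sets, of which 20, 21, 26 and 17 were among the 34. With each of the 32 early, late and control arrays left out in turn, 8 genes met the rule every time. These were Cyp4a8, Rgs16, Tmem164, Ndufv3, Slc2a5, Slc22a8, Hyal3 and Cyp2d4. Acly no longer met it when any 1 control was left out. Just inside the late limit lay Dgat2 (0.80), Myh1 (0.82) and Uqcr10 (0.82), and just outside it Mid1ip1 (0.80), Ugt2a1 (0.80) and Aadat (0.79). At the upper early limit Gpi (early difference 0.30), Uqcr10 (0.29) and Mtmr7 (0.24) were inside, and Pdk1 (0.33), Ndufv2 (0.34) and Slc27a5 (0.35) outside. At the lower early limit Myh1 (-0.16), Dgat2 (-0.15) and Pygl (-0.13) were inside, and Nupr1 (-0.34), Mknk2 (-0.50) and Sult2a6 (-0.66) outside.

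Within the spike-in batches the median late difference of the members was 1.21 in the low arrays and 0.73 in the high arrays, which hold 1 control, against 1.03 over all arrays. It was above 0 for 34 probe sets in the low arrays and for 30 in the high arrays, and reached 0.8 for 29 and 16. The 4 below 0 in the high arrays were Acly (-0.75), Pklr (-0.74), Rpp21 (-0.19) and Pnkd (-0.07). Others near 0 in the high arrays were Dgat2 (0.01), Fasn (0.02 and 0.19), Pygl (0.04), Thrsp (0.07, 0.10 and 0.22), Kynu (0.09) and G0s2 (0.16). Prss3b was larger there (2.97) than in the low arrays (0.81). The part of the batch in the late difference was otherwise not tested.

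Promoters are shown for 4 members, the largest late difference (Cyp4a8) and 3 genes on the path from glucose to fat (Thrsp, Pklr and Acly). The 2 lowest control values of these 3 fell in replicates 1 and 2. In Pklr replicate 3 lay near them (147, 149 and 230) and replicate 4 stood apart (866). Members outside this path, such as Kynu and Rpp21, also had their 2 lowest controls in replicates 1 and 2. The sequences come from RefSeq, rat build GRCr8, in a table where 27 of the 31 genes were matched by symbol. Each run holds the 250 bases before the gene's start, 5′ to 3′ on the gene's strand, and capitals mark a match to a searched motif. Cyp4a8 lies at chr5:133970227-133970476 (minus strand), Thrsp at chr1:161138965-161139214 (minus), Pklr at chr2:176841014-176841263 (plus) and Acly at chr10:85963632-85963881 (minus).
Cyp4a8: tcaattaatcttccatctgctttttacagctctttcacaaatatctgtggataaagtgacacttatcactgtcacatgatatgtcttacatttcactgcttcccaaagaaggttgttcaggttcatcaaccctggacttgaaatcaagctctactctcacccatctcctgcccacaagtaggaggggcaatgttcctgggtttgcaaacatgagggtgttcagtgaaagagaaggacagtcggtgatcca
Thrsp: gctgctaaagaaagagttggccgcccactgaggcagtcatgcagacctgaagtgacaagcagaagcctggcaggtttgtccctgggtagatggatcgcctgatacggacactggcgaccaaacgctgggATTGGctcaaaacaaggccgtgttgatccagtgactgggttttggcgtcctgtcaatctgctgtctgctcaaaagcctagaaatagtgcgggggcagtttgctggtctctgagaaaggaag
Pklr: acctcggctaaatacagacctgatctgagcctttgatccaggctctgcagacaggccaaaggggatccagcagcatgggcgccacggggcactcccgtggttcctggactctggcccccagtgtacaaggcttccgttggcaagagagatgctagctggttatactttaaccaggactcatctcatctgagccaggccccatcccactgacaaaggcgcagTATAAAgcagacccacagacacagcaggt
Acly: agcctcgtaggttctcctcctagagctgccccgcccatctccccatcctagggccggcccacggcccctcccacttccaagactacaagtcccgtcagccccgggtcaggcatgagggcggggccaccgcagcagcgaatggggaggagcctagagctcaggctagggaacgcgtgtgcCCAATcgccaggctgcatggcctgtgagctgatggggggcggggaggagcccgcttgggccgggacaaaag

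Motifs were searched on both strands in windows from 250 bases before to 50 bases after the start, over the 27 members and all 33469 RefSeq promoters of that length. AGAACA, a core site of the glucocorticoid receptor, was in 2 of 27 members (Hsd17b13 and Hyal3) against 20.7% of all promoters. ACA and TGT spaced by 3 bases, a loose form of the full receptor site, were in 2 (Ugt2b and Slc22a8) against 6.86%. The E-box CACGTG, read by ChREBP and by clock factors, was in 0 of 27 against 6.42%, and TTGCGCAA, a C/EBP site, in 0 against 0.17%. CCAAT, bound by NF-Y, was in 11 (40.7%) against 37.5%, among them Thrsp and Acly. The TATA box TATAAA was in 5 (Pklr, Prss3b, Ugt2b, Uqcr10 and Myh1) against 14.2%. The run TATAAA begins 29 bases before the start of Pklr. A match describes letters in this window and is no site, and a missing match says nothing of a factor.

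The first group of members makes fatty acids. Thrsp, the thyroid hormone responsive Spot 14 protein that promotes fatty acid synthesis, had control signals of 144, 199, 714 and 1632 (probe set 1387852_at). Its late signals ran from 910 over a median of 2292 to 3250. Control replicate 4 thus lay inside the late range, and 7 of 12 late arrays were above every control. The late difference was 2.05 for this probe set and 1.81 and 1.80 for the others (1370150_a_at and 1371400_at), so the 3 probe sets gave like values from the same RNA. In the high spike-in arrays alone it was 0.22, 0.07 and 0.10.

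Fasn, fatty acid synthase, had control signals of 130, 150, 715 and 1121 on 1367708_a_at and late signals from 535 over a median of 1530 to 3122. The 2 lower controls lay well below the late range and the 2 higher ones inside it. Its late differences were 1.87 and, on 1367707_at, 1.79, and 0.19 and 0.02 in the high spike-in arrays. Acly, ATP citrate lyase, which supplies the acetyl-CoA, stood at 301, 253, 1065 and 1611 in the controls and between 536 and 2199 late. Only 2 of 12 late Acly arrays were above the highest control, and the late difference of 0.83 changed sign in the high spike-in arrays. Thrsp, Fasn and Acly had their lower values in the same 2 control arrays, replicates 1 and 2. This order was not particular to fatty acid synthesis. Kynu, Rpp21, Pnkd and Pygl shared it, whereas other members, such as Rgs16 and Tspan31, did not. The average over all members was also lower in control replicates 1 and 2 (-0.28 and -0.47) than in replicates 3 and 4 (0.19 and 0.57).

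**Figure D3:**
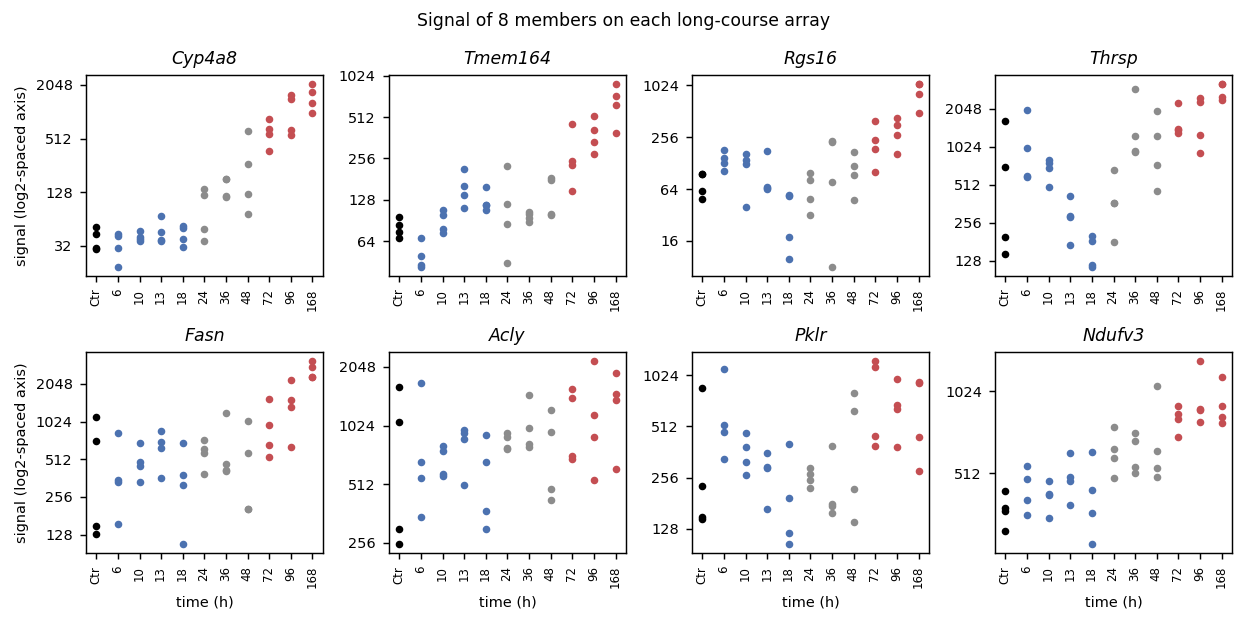
Signal of 8 members on each array of the long course (log2-spaced axis, units as deposited) against time in hours; black points are controls, blue early, grey mid and red late arrays. Cyp4a8, Tmem164, Rgs16 and Ndufv3 have all late arrays above all controls, whereas in Thrsp, Fasn, Acly and Pklr 1 or 2 controls reach the late values.

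A second group handles sugar. Pklr, liver pyruvate kinase, the last step of glycolysis and a classical ChREBP target, stood at 147, 149, 230 and 866 in the controls. Its late signals ran from 279 over 669 to 1245, and 5 of 12 were above the highest control. Slc2a5, the fructose transporter GLUT5, stood at 82.4, 59.2, 84.5 and 140 in the controls and from 109 over 234 to 606 late. Its late difference of 1.15 was 1.31 in the low and 0.76 in the high spike-in arrays. Gpi, glucose-6-phosphate isomerase of glycolysis, had a late difference of 0.97 and Pygl, the liver glycogen phosphorylase that releases glucose from glycogen, one of 0.88. Both overlapped the controls, with 9 and 7 of 12 late arrays above the highest control.

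Another 3 members belong to fat storage. Dgat2, which adds the last acyl chain of triglyceride, had control signals of 474, 753, 887 and 1584 and late signals from 1150 to 2484. Only 2 of its late arrays were above the highest control, and its late difference was 0.80. G0s2, the inhibitor of the lipase ATGL, had a late difference of 0.89 and its highest mean at 24 h (1.21). Hsd17b13, a lipid droplet protein of hepatocytes, was higher at 36 h (1.45) than at 168 h (0.88).

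Cyp4a8, a cytochrome P450 of the fatty acid omega-hydroxylase family, had the largest late difference of the group, 3.78. Its control signals were 29.7, 30.3, 51.6 and 43.3, close to the added constant, and its early signals ran from 18.7 to 69.9. At 24 h the arrays held 118, 139, 36.8 and 49.5. The late arrays ran from 372 over a median of 914 to 2109, all above every control, and the group means climbed from 3.14 at 72 h to 3.804 at 96 h and 4.41 at 168 h. The late difference was 3.91 in the low and 3.81 in the high spike-in arrays. A second, dimmer Cyp4a8 probe set (1393894_at), below the level limit, gave 3.23 late and -0.05 early. Cyp4a genes are near copies of each other, so part of the signal may come from paralogs.

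Cyp2d4, a drug-metabolizing P450 of another multigene family, was tight in the controls at 163, 158, 199 and 155. Its late arrays ran from 244 to 664, without overlap, and its mean was already 1.14 above the controls at 36 h. Ugt2b, a UDP-glucuronosyltransferase of a family with many near copies, stood between 149 and 501 in the controls and between 528 and 1157 late, with its highest mean at 36 h (1.69). Its late difference was 1.46, and a brighter probe set of the same gene (1387825_at) gave 0.64. Slc22a8, the organic anion transporter OAT3, had a late difference of 1.05 with 7 of 12 late arrays above the highest control.

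The members of amino acid metabolism were 3. Kynu, kynureninase of the tryptophan pathway, had control signals of 358, 135, 1162 and 1217 and late signals from 498 over 1733 to 2268. The higher controls lay inside the late range, with 9 of 12 late arrays above the highest, and the late difference was 1.87 in the low but 0.09 in the high spike-in arrays. Dao, D-amino acid oxidase, had a late difference of 1.19, and 10 of 12 late arrays were above the highest control of 397. One control of Dao was far lower, at 45.1. Bckdk, the kinase that switches off branched-chain ketoacid breakdown, had its highest mean at 168 h (1.22) and a late difference of 0.89.

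Mitochondrial and redox genes were 4. Ndufv3, a subunit of respiratory complex I, stood at 381, 314, 373 and 441 in the controls and from 695 over 859 to 1322 late. The groups did not overlap from 24 h on, and the late difference was 1.17. A dimmer Ndufv3 probe set (1368567_at), with a mean level of 6.20 and so below the level limit, gave -0.04. The 2 probe sets did not give like values, and differences of dim probe sets are understated on this scale. Uqcr10, a subunit of complex III, stood between 943 and 1140 in the controls and between 1246 and 3110 late. Atox1, the copper chaperone, and Glrx, glutaredoxin, had late differences of 1.04 and 0.88, with 11 and 9 of 12 late arrays above the highest control.

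Rgs16, a regulator that shortens G protein signals, had control signals of 94.9, 60.4, 48.7 and 95.2. The 72 h arrays held 102, 234, 184 and 396, the 96 h arrays 420, 273, 348 and 161, and the 168 h arrays 800, 1062, 1044 and 490. Every late array lay above every control. Tmem164, a transmembrane protein, stood between 67.8 and 96.2 in the controls. Its 72 h arrays held 147, 229, 246 and 452 and its 168 h arrays 896, 391, 732 and 629. Both genes showed late differences of like size in the low spike-in arrays (2.00 and 2.00) and in the high ones (1.86 and 2.09).

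The other members without overlap late were Ip6k2, an inositol hexakisphosphate kinase (late difference 1.03), Hyal3, a hyaluronidase family protein (0.98), and Mtmr7, a myotubularin-related phosphatase (0.96). The Hyal3 controls lay close together, at 72.0, 68.8, 72.0 and 82.4. A dimmer Ip6k2 probe set (1389005_at), with a mean level of 6.84 and so below the level limit, gave 0.19. Tspan31, a tetraspanin, had a late difference of 0.87 that was already 1.00 at 24 h. Pnkd and Rpp21, a subunit of ribonuclease P, had late differences of 1.03 and 0.88. The highest control of Rpp21, 972, lay near its highest late array of 986, and that of Pnkd, 566, near its late median of 594. A second Pnkd probe set (1372109_at) gave 0.27.

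Prss3b, a trypsinogen normally made by the exocrine pancreas, was the member with the most uneven late arrays. Its control signals were 43.0, 60.3, 255 and 49.1. The late arrays held 766, 291, 68.9 and 1754 at 72 h, 127, 1631, 1412 and 198 at 96 h, and 38.8, 554, 62.8 and 246 at 168 h. Only 6 of the 12 were above the highest control, and 3 were below the control mean. The summed signal of 11 other pancreas marker genes lay between 640 and 2020 in the controls, and late between 549 and 16295 with a median of 2779. The 3 arrays with the most Prss3b, 72 h replicate 4, 96 h replicate 2 and 96 h replicate 3, also had the highest pancreas sums of all 44 arrays, 16295, 13741 and 12380. Of the pancreas markers 1 of 11 passed the test late, upward, and their median late difference was 1.37. Prss3b thus moved with the pancreas markers array by array, and the source of that RNA was not tested.

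**Figure D4:**
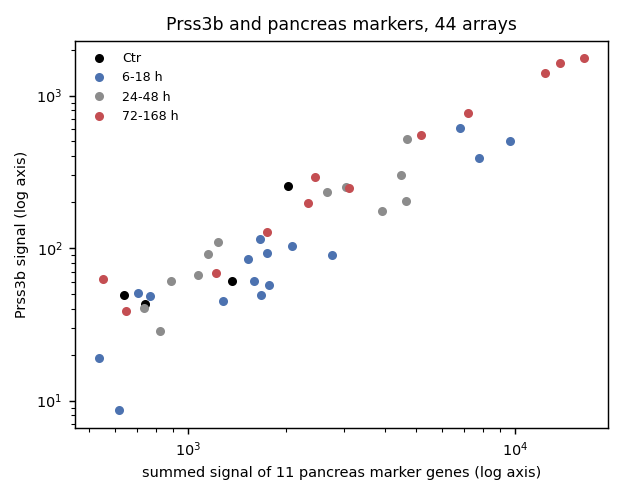
Prss3b signal against the summed signal of 11 pancreas marker genes on the 44 long-course arrays (both axes logarithmic, units as deposited); points are arrays, coloured by window. The 3 late arrays at the top right hold Prss3b at 1412 to 1754 and marker sums of 12380 to 16295.

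Myh1, a fast skeletal muscle myosin heavy chain, is a marker of another tissue. Its signals were 602, 783, 524 and 851 in the controls and 724 to 2218 late, with 11 of 12 late arrays above the highest control. The summed signal of the other 9 muscle markers lay between 241 and 7742 in the controls, with a median of 4265. Late it lay between 297 and 8631 with a median of 1573, and 0 of the 9 passed the limma test late. In control replicates 1 to 4 the muscle sums were 241, 3952, 4579 and 7742, beside Myh1 signals of 602, 783, 524 and 851. The lowest late sum (297, 96 h replicate 1) went with a Myh1 signal of 1327. The highest late sum (8631, 168 h replicate 4) went with one of 1488. The part of muscle RNA in the Myh1 difference was not tested. Myosin heavy chain genes are near copies, and other probe sets annotated to Myh1 gave late differences of 0.72, 0.68, 0.47 and -0.44.

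The rule used the 72 and 168 h values through the mean of the late times, and their difference is another contrast of the same arrays. Rgs16 rose by 1.82 ± 0.41 (log2 ± SE, limma adjusted p = 0.0238) and Tmem164 by 1.24 ± 0.26 (limma adjusted p = 0.0136). Fasn rose by 1.78 ± 0.43 on 1367707_at (limma adjusted p = 0.0388), while its other probe set gave 1.57 ± 0.52 (limma adjusted p = 0.174). Hyal3 also passed, with a difference of 0.61 ± 0.14, but its means at 72 and 96 h (0.78 and 0.76) were under the limit of 0.8. It met the rule only through its 168 h mean of 1.39, so its difference is tied to the selection and is a description. In Rgs16 the 4 arrays at 168 h all lay above the 4 at 72 h. Of all eligible probe sets 0.566% were called higher, and since the 34 were chosen for high values at these times, nothing is read from their count of 4 beside it. None of the members was called lower (0.371% of all). At an unadjusted p under 0.05 there were 7 probe sets higher and 2 lower, from which nothing is read either. Cyp4a8 gave 1.26 ± 0.35 and missed the threshold (limma adjusted p = 0.0796).

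These 168 h calls rest on few arrays. Tmem164 was lost without 168 h replicate 3 or 72 h replicate 1, Rgs16 also without 168 h replicate 2 or 72 h replicate 3, and Hyal3 and Fasn without any of these or 168 h replicate 1 or 72 h replicate 4. Without 168 h replicate 3 or 72 h replicate 1 the count was therefore 0, without 168 h replicate 2 or 72 h replicate 3 it was 1, and without 168 h replicate 1 or 72 h replicate 4 it was 2. In the low spike-in arrays, with a lone array at 168 h, Tmem164 alone passed (1.98, limma adjusted p = 0.0124), and its value in the high arrays, with a lone array at 72 h, was 0.30. Rgs16 gave 2.08 and 0.99, Hyal3 0.82 and 0.69, and Fasn 1.69 and 2.31 in the low and high arrays. With the batch as a block Fasn no longer passed (1.60, limma adjusted p = 0.0679), nor with 96 h replicate 1 grouped at 72 h as its description has it (1.46, limma adjusted p = 0.0773), and over 23 alternatives its adjusted p ranged from 0.0171 to 0.667. A smaller added constant also ended the call of Rgs16 (limma adjusted p = 0.0545).

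The rule likewise used 6 and 18 h through the early mean. Between 6 and 18 h, 3 members rose and 5 probe sets of 3 genes fell. All of these genes lay outside the band at both times, on opposite sides of the controls. They met the rule through the mean over the early times, so their differences are tied to the selection and are a description. The difference of Thrsp was -2.39 ± 0.48, -2.33 ± 0.44 and -2.26 ± 0.42 on its 3 probe sets (limma adjusted p = 0.00142, 0.000848 and 0.000809). Its signals on 1387852_at were 601, 594, 2015 and 1000 at 6 h and 114, 119, 202 and 182 at 18 h, without overlap. G0s2 rose by 1.89 ± 0.38 (limma adjusted p = 0.00139) and Tspan31 by 1.19 ± 0.20 (limma adjusted p = 0.000199). Rgs16 fell by 1.44 ± 0.41 (limma adjusted p = 0.0286), Pygl fell by 1.095 ± 0.29 (limma adjusted p = 0.0196) and Tmem164 rose by 0.93 ± 0.26 (limma adjusted p = 0.0245). Of all eligible probe sets 4.67% were called higher and 4.51% lower, and nothing is read from the members' counts beside them. Over the members the median difference was -0.07, against -0.00 over all eligible probe sets.

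The calls for Thrsp, G0s2 and Tspan31 held with any one of the 8 arrays left out. Those for Rgs16, Tmem164 and Pygl were lost without 6 h replicate 3 (limma adjusted p = 0.0664, 0.0714 and 0.0887). Rgs16 was also lost without 6 h replicate 1 or 2 or 18 h replicate 1 or 3, Tmem164 without 6 h replicate 4 or 18 h replicate 3, and Pygl without 18 h replicate 1 or 2. All 8 calls held in the low spike-in arrays, and 0 in the high arrays, which have a lone array at each of these times. In the high arrays Thrsp still gave -2.27 to -2.44 and Tspan31 1.59. Among 13 measured clock genes, 1 was called higher and 1 lower between the same times, and the time of day of sampling is not in the labels.

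**Figure D5:**
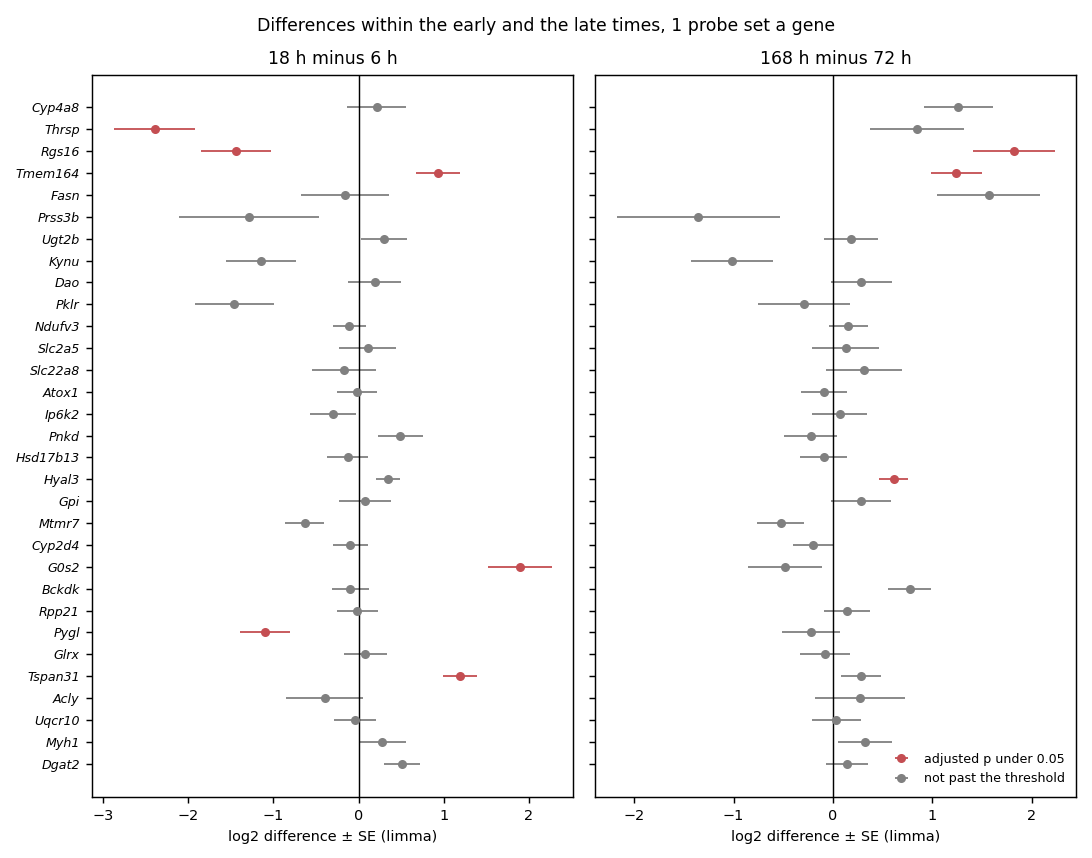
Log2 difference with its standard error (limma, 4 arrays a group) for the 31 member genes between 18 h and 6 h (left) and between 168 h and 72 h (right), each gene shown by its probe set with the largest late difference; red points have an adjusted p under 0.05. Thrsp, Rgs16 and Pygl lie below 0 and Tmem164, G0s2 and Tspan31 above 0 on the left, and Rgs16, Tmem164 and Hyal3 above 0 on the right.

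The 24 and 48 h arrays entered the rule only through the mean level over all arrays, to which Mtmr7, Ip6k2 and Hyal3 lay close (7.04, 7.13 and 7.19 against 7). Between 48 h and 24 h limma called 0 members in either direction, against 0.781% of all eligible probe sets higher and 1.52% lower. At an unadjusted p under 0.05 there were 5 higher and 0 lower. The difference was above 0 for 26 of 34 probe sets, with a median of 0.27 against -0.01 over all eligible probe sets. Thrsp gave 1.34 ± 0.48 (limma adjusted p = 0.188), Cyp4a8 1.11 ± 0.35 (limma adjusted p = 0.109) and Mtmr7 0.75 ± 0.23 (limma adjusted p = 0.104). Without 48 h replicate 2, 1 member was called higher.

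The short course gives other arrays with their own controls. Of the 31 genes 18 had a named probe set there and 16 passed the filter on dim signals. At 30 to 72 h (7 arrays) limma called 0 of 16 in either direction, and 0 at an unadjusted p under 0.05, against 0.0838% of all 3582 genes called higher and 0.0279% lower. The difference was above 0 for 12 genes and below for 4, with a median of 0.25 against 0.03 over all genes. The 5 highest were Dao (0.73 ± 0.58), Fasn (0.68 ± 0.36), Pklr (0.63 ± 0.38), Slc2a5 (0.63 ± 0.35) and Pygl (0.45 ± 0.26), with limma adjusted p of 0.977 or more. The 4 below 0 were Mtmr7 (-0.43), Ndufv3 (-0.17), Kynu (-0.01) and Cyp2d4 (-0.00), and the lowest above 0 was Myh1 (0.10). Cyp4a8 gave 0.17 ± 0.29, with signals of 282 to 575 at 30 to 72 h and 178 to 551 in the controls, which overlap. The courses were scaled apart, so levels are not compared between them, and 168 h has no counterpart in the short course.

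At 4 to 8 h of the short course (17 arrays) 3 of the 16 genes fell. Kynu fell by 1.97 ± 0.59 (limma adjusted p = 0.0124), Mtmr7 by 1.02 ± 0.37 (limma adjusted p = 0.0369) and Ndufv3 by 0.56 ± 0.15 (limma adjusted p = 0.00676). All 17 arrays of Kynu and Ndufv3 lay below their control mean. Kynu signals were 5194, 738, 3208 and 2628 in the controls and ran from 141 over 902 to 2104 at 4 to 8 h, so control replicate 2 lay inside that range. At an unadjusted p under 0.05, 0 of the 16 were higher and 6 lower. No member was called higher, against 16.7% of all genes called higher and 10.8% lower. The median over the 16 genes was -0.58 against 0.11 over all. The count of called genes was 0 without control replicate 1, 1 without replicate 3 or replicate 4 and 6 without replicate 2. Mtmr7 was also lost without 5 h replicate 2 (limma adjusted p = 0.0692), and the replicate block left 1 call, Kynu. At 6 h the long course gave Kynu 1.04 above its controls, whereas the 3 short-course arrays of that hour, at 194, 1773 and 1378, were below their control mean.

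Late differences of the pathways the members belong to were read on the other genes of each list, beside 5.11% of all 8066 genes called higher late and 6.47% lower. The lists and members were chosen with earlier results known. Of fatty acid synthesis, 17 further genes were measured, of which 4 were called higher and 2 lower, with a median of 0.15 against -0.04 over all genes. The summed signal of the whole list of 22, which includes Thrsp, Fasn, Acly, Pklr and Dgat2, lay between 5698 and 27981 in the controls and between 13400 and 29365 late. Glucose metabolism had 8 of 19 further genes higher and 0 lower (median 0.34), and amino acid breakdown 17 of 30 higher and 1 lower (0.76). Lipid droplet genes had 1 of 15 higher and 0 lower (0.24), and drug metabolism 6 of 39 higher and 8 lower (0.17). Fatty acid oxidation, the list of Cyp4a8, had 1 of 22 higher and 5 lower (-0.23). Oxidative phosphorylation had 18 of 44 higher and 0 lower (0.33). The early limit of the rule was not applied to these lists, so those called higher late need not have been near the controls early. The early medians of the further genes were 0.53 for amino acid breakdown, 0.11 for glucose metabolism and -0.10 for fatty acid synthesis. They were 0.25 for lipid droplet genes, 0.15 for oxidative phosphorylation, -0.11 for drug metabolism and -0.16 for fatty acid oxidation. Of the 8066 genes tested 31 were members, and the 23 classical glucocorticoid targets held none. The rule keeps out genes above the controls early, so nothing is read from that absence. Of these targets 15 were called higher late, with medians of 0.97 late and 0.81 early. Adipocyte markers, 6 genes, had none called, and their summed signal lay between 3729 and 5158 in the controls and between 3826 and 6719 late.

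Other probe sets of member genes, read on the same RNA, gave late differences of 1.61 for Pklr (1387263_at), 1.11 for Cyp2d4 (1387913_at, with 0.50 early) and 0.69 for Glrx (1367705_at). These and the Cyp4a8 probe set had the sign of the member and a like size, though those of Pklr, Cyp2d4 and Cyp4a8 lay below the level limit. Those of Ip6k2 (0.19), Pnkd (0.27) and Ugt2b (0.64) were smaller. That of Ndufv3 (-0.04) was near 0 with the other sign, and those of Myh1 ran from -0.44 to 0.72.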

How the data were processed

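Each array gave 1 signal per probe set, deposited by the authors as an intensity on the linear scale, and the software behind it was not given in the sources used here. Long-course arrays shared a 2% trimmed mean of 150.05 to 150.06, and 1 short-course array off its common value was multiplied to it. Signals were taken as log2(signal + 32), so differences of dim genes are understated. The 57 and 59 Affymetrix controls and probe sets under the 30th percentile of mean level were left out. limma 3.58.1 (R 4.3.3) fitted 1 mean per group over all arrays of a course, with a trended moderated variance, and Benjamini-Hochberg adjustment ran over 11106 or 6118 probe sets, with a threshold of 0.05. The code was tested on simulated data. Symbols of single-gene probe sets were updated through RefSeq. In the short course, and in gene lists, a gene stands for its brightest probe set.

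Members, lists, windows and tests were chosen with earlier results of these data known. Any member could be named, in full for the 20 with the largest late change, list members and called members. No other gene was named with values except Tat and the probe sets beside the rule's limits. Alternatives covered the constant, scaling, filter, array weights, batch, replicate block and single arrays left out. Replicate numbers were not taken as pairs: deviations of same-numbered arrays correlated between -0.18 and 0.24 in the long course, where the number goes with the spike-in batch, and between -0.45 and 0.38 in the short course. The array titled 96 h replicate 1 is described as 72 h, and 48 h replicate 1 carries the short course's wording. Titles were used, and without the latter array 0 members were called between 48 and 24 h. No 2 arrays held identical values.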

Additional observations from a re-analysis of the deposited data

Results flagged for a closer look

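Among 58 groups of 4 arrays examined, 3 held an array far from the others, and chance gives about 1 such group in 20. Prss3b had 1 high control, replicate 3 at 254.7, and Pklr 1 high control, replicate 4 at 866. G0s2 at 6 h had 1 high array at 979, where the others held 177, 201 and 232. No member lay above its controls on all late arrays of the long course and below them on all 30 to 72 h arrays of the short course.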

How the results depend on the processing

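The count of members called in each comparison was recomputed under other constants, scalings, filters, weights, batch handling, array labels and with single arrays left out. Between 168 and 72 h it ran from 0 to 5 with single arrays left out, and was 1 in the low and 0 in the high spike-in arrays, against 4. Between 18 and 6 h it ran from 5 to 8 with single arrays left out and from 0 (high arrays) to 11 (array weights) over 15 other settings, against 8. Between 48 and 24 h it ran from 0 to 1, at 30 to 72 h of the short course it stayed 0, and at 4 to 8 h it ran from 0 to 6, against 3. The replicate block gave 4, 0 and 8 calls in the long course, 0 at 30 to 72 h and 1 at 4 to 8 h, and changed no other call. The late difference changed sign in the high spike-in arrays alone for Acly (-0.75), Pklr (-0.74), Rpp21 (-0.19) and Pnkd (-0.065), for which the cause was not tested. The rule gave 25 to 41 probe sets over 12 other settings and 31 to 39 with an array left out. In the low arrays 15 of the 34 were still members and in the high arrays 11. Signal near background limits members such as Cyp4a8, Rgs16 and Prss3b, whose lowest arrays lie under the added constant of 32.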
